A study of Homo sapiens with 12 samples.

Results

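The genes described here encode the proteins of blood clotting, of its inhibition and dissolution, and of complement. A written list of 51 gene symbols set the members, and all 51 were found by symbol among the 60666 genes of the deposited Huh7 table. The list holds 10 clotting factors, the 3 fibrinogen chains, 7 anticoagulants, 6 proteins of fibrinolysis and broad protease inhibition, and 25 complement genes. Of these, 48 reached the filter of 1 TPM, a length-corrected share of the transcripts in a library, or more in 3 of the 6 libraries and were tested. F9, MASP2 and C9 did not, with at most 0.03, 1.14 and 0.25 TPM in any library. HRG and C6 passed the filter through the control libraries alone, since no shFAM111B library reached 1 TPM for either gene. KLKB1 and C8G had 1 TPM or more in all control libraries but in only 1 and 2 shFAM111B libraries. Both stay in the counts below.

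Huh7 is an established human hepatocellular carcinoma line. The control group carried a control sequence, the knockdown group (shFAM111B) carried an shRNA against FAM111B, and the study made both stable lines with lentivirus and puromycin selection. Each group had 3 libraries of poly(A)-selected RNA, grown in the same high-glucose medium with serum, and no source used here says that the replicates were separate cultures, so the p-values measure only the spread between these libraries. Only 1 shRNA sequence is given for the knockdown, so an effect of that sequence and of the loss of FAM111B cannot be told apart. The Hep3B libraries of the series were not analysed here.

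Hepatocytes make most of the clotting and complement proteins found in plasma. Clotting is a chain of serine proteases that ends with thrombin cutting fibrinogen into fibrin; serpins, protein C with its cofactor protein S, and tissue factor pathway inhibitor hold the chain back, and plasmin dissolves the clot. Complement is a second chain of plasma proteases, started by antibody (C1), by sugars bound by lectins (MBL2 with the MASP proteases) or by spontaneous turnover of C3, that joins at C3 and ends in a pore built from C5 to C9. Regulators in plasma and on the cell membrane keep it from attacking the body's own cells.

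In the order of replicates 1 to 3, as for all values below, the control libraries held 7.84, 8.29 and 7.99 TPM of FAM111B and the shFAM111B libraries 0.96, 1.13 and 0.84 TPM, which checks the labels (log2 fold change -2.20, standard error 0.113, adjusted p = 6.09e-06). The groups were compared with limma on log2(TPM + 1), so every log2 fold change below, and the fold of 2 that a call needs, is on that scale, which understates the change of genes of few TPM, and is negative when shFAM111B was lower. Folds on the means are ratios of TPM and can be larger. TPM are shares of a library: the median of all 14394 tested genes lay at -0.36, and the median-of-ratios factors ran from 1.17 to 1.18 in control and from 0.85 to 0.87 in shFAM111B libraries. A member's difference was therefore also taken under 3 other scalings and after taking out a trend fitted over length and level, and any of these 4 alternatives that turned a direction or ended a call is given beside the gene. The hepatocyte label held in both groups, with 10 of 10 markers at 38.5 TPM or more in every library, 4 of them called higher and 2 lower. Their summed level was 26642 to 26900 TPM in control and 45581 to 52434 TPM in shFAM111B libraries, with AFP, APOA1 and APOA2 higher and ALB lower, and with APOB lower by 4.91-fold on the means (-2.27 on the log2 scale). HNF4A, a transcription factor of hepatocyte genes, had 99.6, 95.7 and 99.0 TPM against 40.5, 43.0 and 38.5 TPM. Of the 20 markers of other cells, 4 were tested. The summed levels were 1.26 to 2.29 against 2.15 to 3.49 TPM for 5 endothelial markers, 3.72 to 4.19 against 5.61 to 9.02 TPM for 5 fibroblast markers (LUM called higher), and at most 4.59 TPM for 4 platelet markers, of which PF4, PPBP and GP9 were at 0. The 6 leukocyte markers summed to 261 to 266 against 286 to 317 TPM, nearly all of it LYZ, with CD163 at 0. The part of these markers in the results below was not tested.

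Most of these genes had lower levels in shFAM111B cells, while a smaller group around C3 and C4BPB was higher. On log2(TPM + 1), A2M (alpha-2-macroglobulin), FGA (a fibrinogen chain) and MBL2 (mannose-binding lectin) fell most. At a fold of at least 2 and an adjusted p under 0.05, 8 of the 48 tested members (16.7%) were lower, against 23.7% of all tested genes. They were FGA, FGG, SERPINC1, SERPIND1, A2M, C4A, MBL2 and C8B. None (0) was higher by that rule in limma, and 0 also at an unadjusted P under 0.05 with the same fold, against 6.77% of all tested genes, and calls in either direction covered 30.4% of all tested genes. Without the limit on the fold, 34 members (70.8%) passed the test with lower and 9 (18.8%) with higher values, where 50.9% and 21.1% of all tested genes did, or 72% in either direction. These counts turn on the scaling. They became 23 lower and 15 higher with median-of-ratios factors, and 25 and 10 with quantiles made equal. They became 36 and 6 after rescaling to nuclear protein-coding genes, and 26 and 14 with the length trend removed. How many of all tested genes passed the test under these alternatives was not counted. Whether the shifts are particular to the members was therefore not tested. Without HRG and C6, whose values in control alone brought them past the filter, 32 of 46 members were lower and 9 higher, and the 8 calls were kept. The libraries of the groups did not overlap for 36 members that were lower and 11 that were higher, against 52.8% and 22.5% of all tested genes (75.2% in either direction), and overlapped for C4B. In bulk RNA, fewer cells of a kind and less RNA per cell cannot be told apart. The median log2 fold change over the 48 members was -0.65 (-0.58 without HRG and C6), and 30 of them lay below the median gene. Summed over the 51 genes, the level was 16257 ± 93.9 TPM (SD, n = 3) in control and 11772 ± 222 TPM (SD, n = 3) in shFAM111B cells.

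The groups of genes differed in their medians. With HRG and C6 left out, fibrinogen lay at -1.13 over 3 genes, terminal complement at -0.96 over 4, fibrinolysis and protease inhibitors at -0.94 over 5, anticoagulants at -0.79 over 7 and clotting factors at -0.65 over 9. All complement genes together lay at -0.36 over 22, beside the median gene, with C3, CFB and several regulators above 0 and most early and terminal components below. A median over so few genes is a description, without a test. In the 4 alternatives, 37 of the 48 members kept their sign, 27 of them lower and 10 higher, and 20 lower and 4 higher members also passed the test each time. The 4 were PLG, C1R, C4BPB and CD59. The 20 were F7, F12, KLKB1, the fibrinogen chains, SERPINC1, SERPIND1, PROS1, SERPINF2, CPB2, A2M, MBL2, C5, C6, C8B, C8G, CFI, CLU and CD46. Of these, C6 passed the filter through control values alone, and KLKB1 and C8G reached 1 TPM in only 1 and 2 shFAM111B libraries. FGA, A2M and MBL2 alone were called at the fold of 2 in the fit of the deposited TPM and in all 4 alternatives. How many of all tested genes kept their sign, test or call each time was not counted. These member counts therefore have no background beside them.

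**Figure D1:**
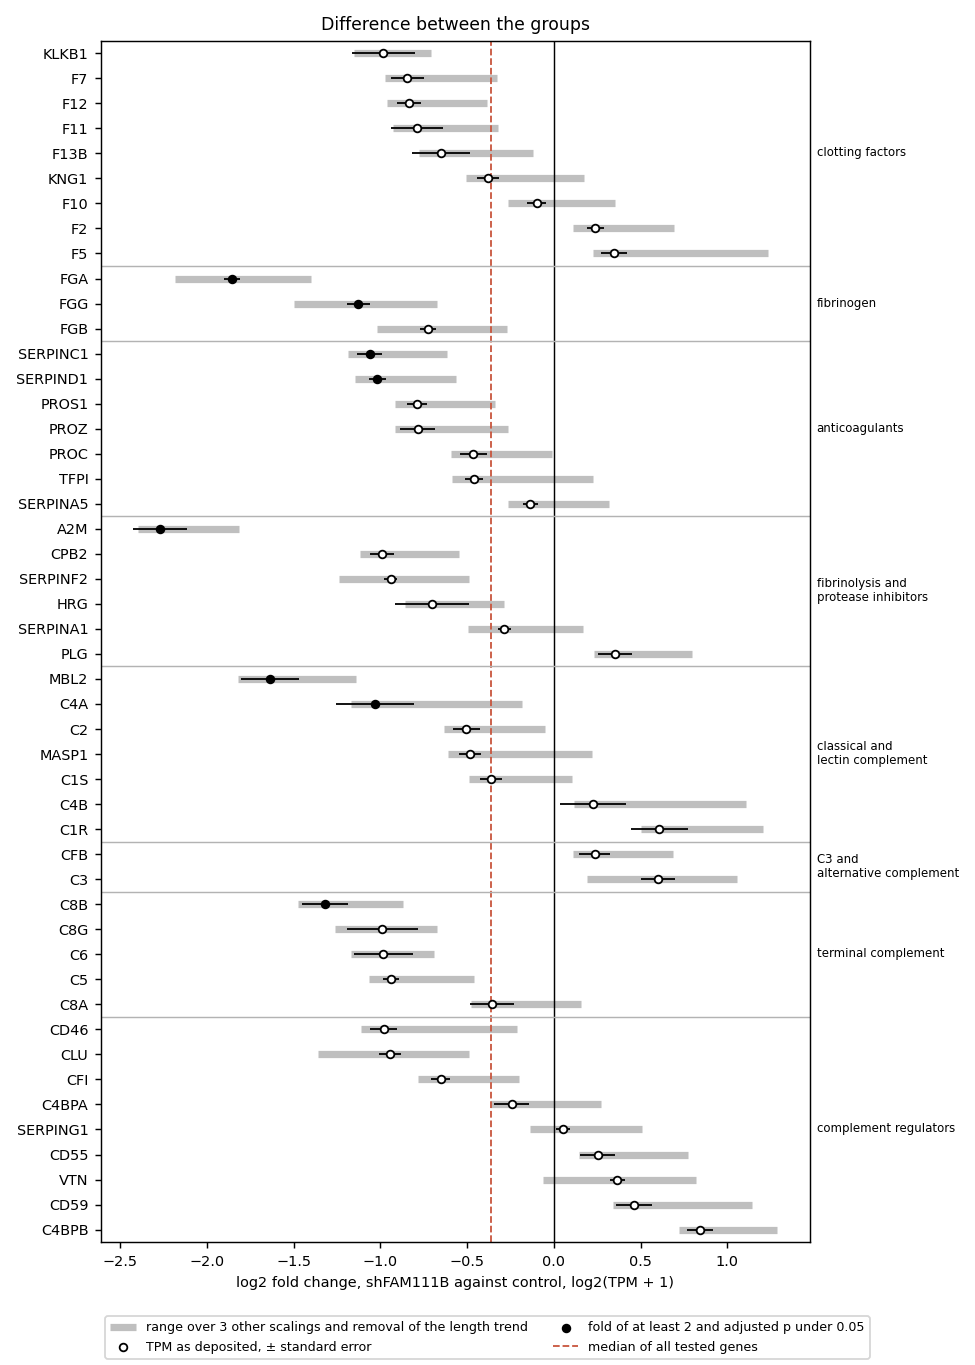
Log2 fold change of each of the 48 tested members (x axis, shFAM111B against control on log2(TPM + 1)), by role, as a point with its standard error; filled points passed a fold of at least 2 and an adjusted p under 0.05, grey bars span 3 other scalings and the fit with the length trend removed, and the dashed line marks the median of all tested genes at -0.36. A2M at -2.27, FGA at -1.86 and MBL2 at -1.64 lie farthest to the left and C4BPB at 0.84 farthest to the right.

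Fibrinogen is built from pairs of 3 chains, encoded side by side on chromosome 4, and the chains moved unequally. The 250 bases upstream of each start site (RefSeq, GRCh38.p14, 5′ to 3′ on the strand of the gene) are shown because the chain genes are neighbours that fell together but by different amounts. Capitals mark matches to letters that liver factors are known to bind: GTTAAT for HNF1, TTNNGCAA for C/EBP, CTGGGAA for the IL-6 response and CAAAGTNCA for HNF4, each searched on both strands, with no 2 matches overlapping in these windows.
FGA, chr4:154590743-154590992, minus strand: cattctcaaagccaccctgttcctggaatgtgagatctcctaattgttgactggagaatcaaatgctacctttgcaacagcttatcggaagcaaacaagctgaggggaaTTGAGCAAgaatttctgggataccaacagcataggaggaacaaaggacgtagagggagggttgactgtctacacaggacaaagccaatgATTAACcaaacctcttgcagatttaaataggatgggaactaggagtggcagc
FGB, chr4:154562730-154562979, plus strand: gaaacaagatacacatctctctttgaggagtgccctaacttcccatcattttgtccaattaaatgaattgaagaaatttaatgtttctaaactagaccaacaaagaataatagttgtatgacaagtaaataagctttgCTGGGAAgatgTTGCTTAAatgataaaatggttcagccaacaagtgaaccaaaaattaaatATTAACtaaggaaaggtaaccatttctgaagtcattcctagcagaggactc
FGG, chr4:154612657-154612906, minus strand: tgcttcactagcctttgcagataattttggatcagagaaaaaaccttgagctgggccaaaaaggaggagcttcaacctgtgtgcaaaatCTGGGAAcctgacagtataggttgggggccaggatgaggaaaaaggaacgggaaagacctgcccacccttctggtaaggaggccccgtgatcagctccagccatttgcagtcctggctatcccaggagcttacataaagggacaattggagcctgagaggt
FGA and FGB each hold 1 match to the HNF1 and 1 to the C/EBP letters, FGB and FGG each 1 to the IL-6 letters, and none of them holds the HNF4 letters. Over all 27305 promoter windows 6.22% hold the HNF1, 9.13% the C/EBP, 9.30% the IL-6 and 0.91% the HNF4 letters. Of the 41 members with a window, 7, 9, 6 and 3 hold them in that order. A match is a run of letters in these windows and not a measured site.

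FGA, which encodes the alpha chain (ENSG00000171560, chr4:154583126-154590766), stood at 1339.9, 1430.0 and 1320.2 TPM in control libraries and at 371, 373 and 383 TPM in shFAM111B libraries. Every shFAM111B library lay below every control library, by 3.63-fold on the means (log2 fold change -1.86, standard error 0.0449, adjusted p = 1.38e-06). FGG, for the gamma chain, had 981, 975 and 837 TPM against 417, 432 and 426 TPM (log2 fold change -1.13, standard error 0.0677, adjusted p = 1.02e-05). Its groups did not overlap either, but its fold was under 2 after median-of-ratios scaling (-0.67). FGB, for the beta chain and the most abundant of the trio, had 2861, 2815 and 2669 TPM against 1656, 1725 and 1661 TPM. That is a fall of 1.66-fold (log2 fold change -0.73, standard error 0.0443, adjusted p = 1.07e-05), under the fold of 2 with the TPM as deposited and past it after quantile normalization (-1.02). The sum of the chains was 5076 ± 217 TPM (SD, n = 3) in control and 2481 ± 43.8 TPM (SD, n = 3) in shFAM111B cells.

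Within a library, a ratio of chains does not depend on the scaling. FGA mRNA made up 26.9% ± 0.876 (SD, n = 3) of the summed TPM of the chains in control cells and 15.2% ± 0.392 (SD, n = 3) in shFAM111B cells, while FGB went from 54.8% ± 0.766 (SD, n = 3) to 67.7% ± 0.473 (SD, n = 3). FGG made up 18.3% ± 0.858 (SD, n = 3) and 17.1% ± 0.1 (SD, n = 3). The FGA to FGB ratio was 0.468, 0.508 and 0.495 in control and 0.224, 0.216 and 0.231 in shFAM111B libraries, a log2 difference of -1.13. For FGG to FGB the ratios were 0.343, 0.346 and 0.313 against 0.252, 0.25 and 0.256, a log2 difference of -0.40. In both ratios every shFAM111B library lay below every control library, with an exact two-sided permutation p = 0.1, the smallest that 3 libraries against 3 can give.

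The clotting factors split, with F2 and F5 higher and most of the contact and extrinsic factors lower. Of 9 tested, 2 (22.2%) passed the test with higher and 6 (66.7%) with lower values at any fold. Over all tested genes these shares were 21.1% and 50.9%. None (0) of the 9 reached a fold of 2 on log2(TPM + 1), where 30.4% of all tested genes were called in either direction. KLKB1 reached it with a pseudocount of 0.1 (-1.53) and after rescaling to nuclear protein-coding genes (-1.15). It also did so without control replicate 1 (-1.03), control replicate 3 (-1.09) or shFAM111B replicate 3 (-1.06). F2, prothrombin and the most abundant factor here, had 136, 141 and 146 TPM in control and 165, 162 and 173 TPM in shFAM111B libraries. The groups did not overlap (log2 fold change 0.24, standard error 0.0485, adjusted p = 0.00342), and F2 stayed higher in the 4 alternatives, at 0.11 to 0.69, with an adjusted p = 0.051 after rescaling to nuclear protein-coding genes, where F5 too lost the test (adjusted p = 0.063). F5, the cofactor of factor Xa, rose from 19.8 ± 0.173 to 25.5 ± 2.22 TPM (SD, n = 3; log2 fold change 0.35, standard error 0.0774, adjusted p = 0.00538), and reached a log2 fold change of 1.23 with the length trend removed, its longest transcript having 7039 nt.

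F7, which starts the extrinsic pathway with tissue factor, fell from 20.2 ± 0.774 to 10.8 ± 1.23 TPM (SD, n = 3; log2 fold change -0.84, standard error 0.0958, adjusted p = 0.00018). F12, which starts the contact pathway, fell from 113 ± 4.91 to 63.0 ± 4.63 TPM (SD, n = 3; log2 fold change -0.84, standard error 0.0675, adjusted p = 3.49e-05). Its exons overlap those of GRK6 on the opposite strand over 14.4% of their bases, and GRK6 went from 36.9, 35.7 and 37.9 to 21.1, 22.3 and 24.6 TPM. Of the other contact factors, F11 had a log2 fold change of -0.79 (adjusted p = 0.00245), KLKB1 (plasma prekallikrein) of -0.98 (adjusted p = 0.00212) and KNG1 (kininogen) of -0.38 (adjusted p = 0.00144). F11 lost the test after quantile normalization (adjusted p = 0.0892). KNG1 turned higher after median-of-ratios scaling (0.07) and with the length trend removed (0.17, adjusted p = 0.0474), and lost the test in the first of these and after quantile normalization (adjusted p = 0.391 and 0.256). KLKB1 was low, with 2.44, 3.58 and 2.17 TPM against 0.82, 0.71 and 1.08 TPM. F13B, the carrier subunit of the clot-stabilising factor XIII, had a log2 fold change of -0.65 (adjusted p = 0.0106), and it lost the test after median-of-ratios scaling (adjusted p = 0.231) and quantile normalization (adjusted p = 0.536). F10, whose active form makes thrombin, did not pass the test at -0.10 (adjusted p = 0.131), with 79.3, 75.1 and 82.7 TPM against 75.0, 72.3 and 73.7 TPM. It changed sign after median-of-ratios scaling, where it passed the test (0.35, adjusted p = 0.000789), and after quantile normalization, where it did not (0.03). F10 passed with lower values after rescaling to nuclear protein-coding genes (-0.23, adjusted p = 0.0111) and with the length trend removed (-0.26, adjusted p = 0.0045).

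**Figure D2:**
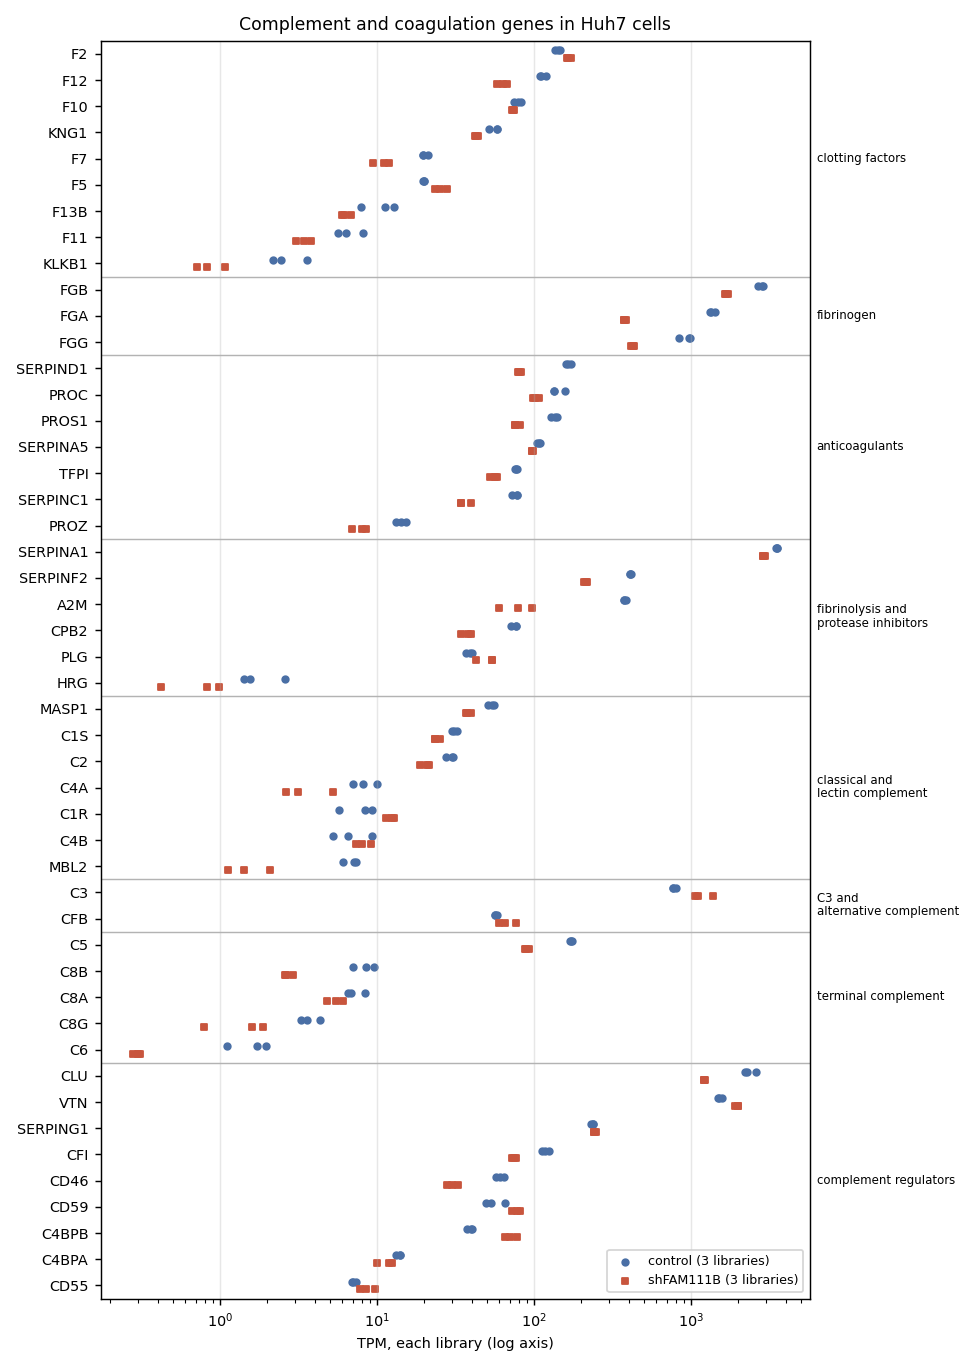
TPM of each of the 48 tested members in each of the 6 Huh7 libraries (x axis, log scale; circles control, squares shFAM111B), by role and in order of the control mean. The circles and squares of all members but C4B lie apart, as those of 75.2% of all tested genes would. For F10 they are barely apart, with 75.06 TPM in control replicate 2 and 75.02 TPM in shFAM111B replicate 1. FGA falls from 1363 ± 58.5 to 376 ± 6.54 TPM and C3 rises from 778 ± 18.9 to 1186 ± 174 TPM.

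All 7 anticoagulants passed the test with lower values in shFAM111B cells, where 50.9% of all tested genes did. SERPINC1 and SERPIND1 reached a fold of 2, which is 28.6% of the 7, near the 23.7% of all tested genes called lower. The lower values of 4 of them did not pass under every setting, as given for each. SERPIND1, heparin cofactor II, had 160.0, 171 and 164 TPM in control and 80.5, 83.1 and 79.3 TPM in shFAM111B libraries (log2 fold change -1.02, standard error 0.0468, adjusted p = 4.36e-06). SERPINC1, antithrombin, had 77.6, 77.4 and 72.8 TPM against 34.3, 39.5 and 34.1 TPM (log2 fold change -1.06, standard error 0.072, adjusted p = 1.65e-05). For both genes every control library lay above every shFAM111B library. Both calls sit near the threshold: median-of-ratios scaling took SERPIND1 to -0.57 and SERPINC1 to -0.61, quantile normalization took SERPINC1 to -0.82, and SERPIND1 lay at -0.89 with the length trend removed and at -0.99 without control replicate 2.

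PROS1, protein S, fell from 135 ± 5.84 to 77.8 ± 3.48 TPM (SD, n = 3; log2 fold change -0.79, standard error 0.0557, adjusted p = 1.96e-05), and its partner PROC, protein C, from 142 ± 14.0 to 103 ± 4.37 TPM (SD, n = 3; log2 fold change -0.46, standard error 0.0767, adjusted p = 0.00123). PROZ, protein Z, had a log2 fold change of -0.79 (adjusted p = 0.000357) and TFPI, which blocks the tissue factor pathway, of -0.46 (adjusted p = 0.000201). SERPINA5, the protein C inhibitor, had the smallest difference of the group, -0.14 (adjusted p = 0.0237). The direction of TFPI turned with the length trend removed (0.22) and that of SERPINA5 after median-of-ratios scaling (0.32). There each passed the test with higher values (adjusted p = 0.00827 for TFPI and 0.000508 for SERPINA5). After median-of-ratios scaling PROC and TFPI lay at -0.01 and lost the test (adjusted p = 0.893 and 0.841), as PROZ did after quantile normalization (adjusted p = 0.0628). SERPINA5 lost it with the replicate number as a block (adjusted p = 0.0505), after quantile normalization (adjusted p = 0.0776), with the length trend removed (adjusted p = 0.654) and without control replicate 2 or 3 or shFAM111B replicate 1 (adjusted p = 0.0626 to 0.0761). The summed anticoagulants had 717 ± 6.57 TPM (SD, n = 3) in control and 458 ± 7.14 TPM (SD, n = 3) in shFAM111B cells, whereas the summed clotting factors had 449.5 ± 6.61 TPM (SD, n = 3) in control and 393 ± 8.93 TPM (SD, n = 3) in shFAM111B cells.

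Among the genes of fibrinolysis and protease inhibition, plasminogen was higher and its inhibitors lower. A2M, alpha-2-macroglobulin, a trap for proteases of every class (ENSG00000175899, chr12:9067664-9116229), had 383, 374 and 374 TPM in control and 79.2, 97.3 and 60.1 TPM in shFAM111B libraries. It was 4.78-fold lower on the means and had the largest difference of any member on log2(TPM + 1) (log2 fold change -2.27, standard error 0.156, adjusted p = 1.74e-05), and the shFAM111B libraries were less even than the controls, replicate 3 being lowest. In the 4 alternatives A2M stayed between -2.40 and -1.82. SERPINA1, alpha-1-antitrypsin and the most abundant member, had 3499, 3545 and 3550.5 TPM against 2876, 2869 and 2945 TPM (log2 fold change -0.29, standard error 0.0372, adjusted p = 0.000361). The groups did not overlap, but the log2 fold change of SERPINA1 lay above that of the median gene and turned to 0.17 after median-of-ratios scaling.

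PLG, plasminogen, rose from 39.0 ± 1.73 to 50.3 ± 6.37 TPM (SD, n = 3; log2 fold change 0.35, standard error 0.0986, adjusted p = 0.0147) and was higher in the 4 alternatives as well. Its adjusted p was 0.0509 without control replicate 3 and 0.0502 without shFAM111B replicate 1. SERPINF2, the main plasmin inhibitor, fell from 410.2 ± 2.8 to 213 ± 4.3 TPM (SD, n = 3; log2 fold change -0.94, standard error 0.0378, adjusted p = 3.15e-06). CPB2, which trims plasmin binding sites from fibrin, fell from 74.8 ± 3.11 to 37.2 ± 2.6 TPM (SD, n = 3; log2 fold change -0.99, standard error 0.0681, adjusted p = 1.73e-05). On log2(TPM + 1) both lie just short of a fold of 2, which each passed under 2 of the 4 alternatives, and on the means CPB2 was 2.01-fold lower. HRG, histidine-rich glycoprotein, had 2.58, 1.55 and 1.42 TPM against 0.82, 0.42 and 0.98 TPM and a log2 fold change of -0.70 (adjusted p = 0.0204), from a gene that only control values brought past the filter. HRG lost the test in 3 of the 4 alternatives (adjusted p = 0.082 to 0.284) and without the filter (adjusted p = 0.0613). It also lost it without control replicate 1 (adjusted p = 0.055) or shFAM111B replicate 2 (adjusted p = 0.0634).

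In the classical and lectin pathways of complement, C1R rose, and MBL2 and most proteases fell. MBL2, mannose-binding lectin (ENSG00000165471, chr10:52765380-52771700), had 7.34, 7.13 and 6.06 TPM in control and 1.12, 1.43 and 2.09 TPM in shFAM111B libraries. It was 4.42-fold lower on the means, with groups apart (log2 fold change -1.64, standard error 0.167, adjusted p = 0.000107), and stayed between -1.82 and -1.14 in the 4 alternatives. MASP1, a protease that MBL2 carries and the most abundant gene of this group, had 53.8, 50.7 and 55.7 TPM against 39.6, 36.7 and 37.4 TPM (log2 fold change -0.48, standard error 0.0609, adjusted p = 0.000305), also without overlap, but it lost the test after median-of-ratios scaling (adjusted p = 0.595) and was higher with the length trend removed (0.22). MASP2 was below the filter.

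C1R and C1S, the proteases of the C1 complex, went opposite ways. C1R had 8.43, 9.29 and 5.74 TPM in control and 12.9, 11.4 and 12.5 TPM in shFAM111B libraries (log2 fold change 0.61, standard error 0.165, adjusted p = 0.0127), and C1S 31.1, 30.2 and 32.2 TPM against 25.3, 23.4 and 23.5 TPM (log2 fold change -0.36, standard error 0.0627, adjusted p = 0.00159). The log2 fold change of C1S equals that of the median gene to 2 decimals and turned positive in 3 of the 4 alternatives, where it lost the test, whereas C1R stayed higher and passed a fold of 2 in 3 of them. The ratio of C1R to C1S within a library was 0.271, 0.307 and 0.178 in control and 0.509, 0.487 and 0.531 in shFAM111B libraries, a log2 difference of 1.05 (0.97 on TPM + 1) with the groups apart. C1R shares 11.4% of its exonic bases with C1RL. C2 fell from 29.2 ± 1.66 to 20.3 ± 1.46 TPM (SD, n = 3; log2 fold change -0.51, standard error 0.0789, adjusted p = 0.000921), but lost the test in 3 of the 4 alternatives (adjusted p = 0.399 to 0.586).

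C4A and C4B are near-identical copies, and their TPM cannot be told apart with certainty. Of the 100-base windows of the longest C4A transcript, 87.8% also occur in C4B transcripts. C4A had 6.98, 8.18 and 9.94 TPM against 3.14, 5.25 and 2.64 TPM (log2 fold change -1.03, standard error 0.224, adjusted p = 0.00473), C4B 6.53, 5.25 and 9.26 TPM against 8.06, 7.36 and 9.17 TPM, which did not pass the test (log2 fold change 0.22, standard error 0.189, adjusted p = 0.317), and the groups of C4B overlap. Their sum was 13.5, 13.4 and 19.2 TPM in control and 11.2, 12.6 and 11.8 TPM in shFAM111B libraries, so the sum was lower in each shFAM111B library, by less than the C4A values alone. C4A lost the test after quantile normalization (adjusted p = 0.0772) and with the length trend removed (adjusted p = 0.495). The C4A call fell under a fold of 2 after median-of-ratios scaling (-0.65), after quantile normalization (-0.55), with the length trend removed (-0.18), and without control replicate 3 (-0.91), shFAM111B replicate 1 (-0.96) or shFAM111B replicate 3 (-0.87).

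C3 and CFB, the substrate and the protease of the alternative pathway, both passed the test with higher values, CFB narrowly. C3, where all pathways of complement join, had 764, 771 and 799 TPM in control and 1110.1, 1063 and 1386 TPM in shFAM111B libraries. The groups did not overlap (log2 fold change 0.60, standard error 0.0978, adjusted p = 0.00116), replicate 3 was the highest of the shFAM111B libraries, and the log2 fold change ran from 0.19 after quantile normalization, where C3 lost the test (adjusted p = 0.149), to 1.05 after median-of-ratios scaling. CFB, factor B, had 57.9, 56.0 and 56.0 TPM against 65.3, 59.9 and 76.4 TPM (log2 fold change 0.24, standard error 0.0896, adjusted p = 0.0475). CFB lost the test with the replicate number as a block (adjusted p = 0.0516), without the filter (adjusted p = 0.0978), after rescaling to nuclear protein-coding genes (adjusted p = 0.174) and without any 1 library other than shFAM111B replicate 2 (adjusted p = 0.0801 to 0.112). A read-through gene of C2 and CFB, AL645922.1, shares 45% of the exonic bases of CFB and 32.9% of those of C2, and it had 3.06, 5.74 and 5.77 TPM in control and 17.2, 13.5 and 14.8 TPM in shFAM111B libraries. How reads were divided among these genes is not given in the sources used here, so the values of CFB and C2 are uncertain.

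The terminal components, which build the membrane pore, included C5, C8B, C8G and C8A among the genes that reached 1 TPM in both groups, and these 4 passed the test with lower values, C8B with a fold of 2. C6 passed the filter through control values alone and is left out of that count. Over all tested genes 50.9% passed with lower values, and 23.7% were called lower at a fold of 2. C5, the precursor of the first pore component and of the anaphylatoxin C5a, had 169.6, 175 and 172 TPM in control and 87.0, 92.4 and 89.0 TPM in shFAM111B libraries (log2 fold change -0.94, standard error 0.0443, adjusted p = 4.63e-06). C8B had 8.45, 9.61 and 7.04 TPM against 2.65, 2.93 and 2.61 TPM (log2 fold change -1.32, standard error 0.131, adjusted p = 9.15e-05). Both had groups that lay apart. C8B fell short of a fold of 2 after median-of-ratios scaling (-0.95) and quantile normalization (-0.87).

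C8 is a complex of alpha, beta and gamma chains from separate genes, and their levels did not keep step. C8A had 8.41, 6.81 and 6.54 TPM against 6.03, 5.46 and 4.82 TPM (log2 fold change -0.36, standard error 0.129, adjusted p = 0.0404), and turned higher after median-of-ratios scaling (0.04) and quantile normalization (0.16). C8A lost the test in these, with the length trend removed (adjusted p = 0.464), without the filter (adjusted p = 0.083) and without control replicate 1 or 2 or shFAM111B replicate 2 or 3 (adjusted p = 0.0643 to 0.123). C8G, the lipocalin chain, had 3.3, 3.56 and 4.33 TPM against 0.79, 1.87 and 1.6 TPM (log2 fold change -0.99, standard error 0.205, adjusted p = 0.00373). The ratio of C8A to C8B was 0.995, 0.709 and 0.929 in control and 2.28, 1.86 and 1.85 in shFAM111B libraries, a log2 difference of 1.19 (0.96 on TPM + 1) with the groups apart. C6 was near the limit of 1 TPM, with 1.71, 1.11 and 1.95 TPM against 0.28, 0.31 and 0.3 TPM and a log2 fold change of -0.98 (adjusted p = 0.00153).

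Of the 9 regulators of complement, 3 (33.3%) passed the test with higher values, 3 (33.3%) with lower values, and 3 did not pass. Over all tested genes 21.1% passed with higher and 50.9% with lower values. CLU, clusterin, which binds forming pores and is the most abundant regulator in control cells, had 2202, 2279 and 2587 TPM in control and 1233, 1216 and 1218 TPM in shFAM111B libraries. It fell by 1.93-fold with groups apart (log2 fold change -0.94, standard error 0.0643, adjusted p = 1.67e-05), just short of the fold of 2 on log2(TPM + 1) that it passed in 3 of the 4 alternatives. VTN, vitronectin, which also blocks the pore, rose from 1522 ± 49.5 to 1960.3 ± 42.7 TPM (SD, n = 3; log2 fold change 0.37, standard error 0.0426, adjusted p = 0.000206) and thereby passed CLU in level. VTN turned to -0.06 after quantile normalization (adjusted p = 0.171). CFI, the protease that inactivates C3b, fell from 118 ± 6.52 to 74.6 ± 2.4 TPM (SD, n = 3; log2 fold change -0.65, standard error 0.0569, adjusted p = 4.9e-05). Its exons share 32.0% of their bases with AC126283.2, so its value is uncertain.

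C4BPA and C4BPB, the chains of the C4b-binding protein that serves CFI as a cofactor, parted. C4BPB had 37.3, 39.8 and 40.4 TPM in control and 77.8, 65.3 and 70.3 TPM in shFAM111B libraries, 1.82-fold higher on the means (log2 fold change 0.84, standard error 0.0758, adjusted p = 5.73e-05), and it was higher in the 4 alternatives, at 0.72 to 1.29. C4BPA had 13.9, 14.0 and 13.2 TPM against 11.9, 12.5 and 9.95 TPM and did not pass the test (log2 fold change -0.24, standard error 0.0995, adjusted p = 0.0607). Its sign turned after median-of-ratios scaling (0.18) and quantile normalization (0.27). The ratio of C4BPA to C4BPB, which needs no scaling, was 0.373, 0.352 and 0.326 in control and 0.152, 0.192 and 0.142 in shFAM111B libraries, a log2 difference of -1.12 (-1.09 on TPM + 1).

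Of the membrane regulators, CD46, a cofactor for CFI, fell from 60.7 ± 3.53 to 30.3 ± 2.56 TPM (SD, n = 3; log2 fold change -0.98, standard error 0.0788, adjusted p = 3.39e-05), and CD59, which stops the insertion of C9, rose from 56.0 ± 8.41 to 77.0 ± 4.12 TPM (SD, n = 3; log2 fold change 0.46, standard error 0.106, adjusted p = 0.00615). CD55, which breaks up the C3 convertases, had a log2 fold change of 0.25 (adjusted p = 0.0596) and SERPING1, the inhibitor of C1 and of the contact proteases, of 0.05 (adjusted p = 0.253), and neither passed the test. SERPING1 had 231, 237 and 239 TPM against 242, 242 and 249 TPM, and it turned lower after quantile normalization (-0.14) and after rescaling to nuclear protein-coding genes (-0.07).

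**Figure D3:**
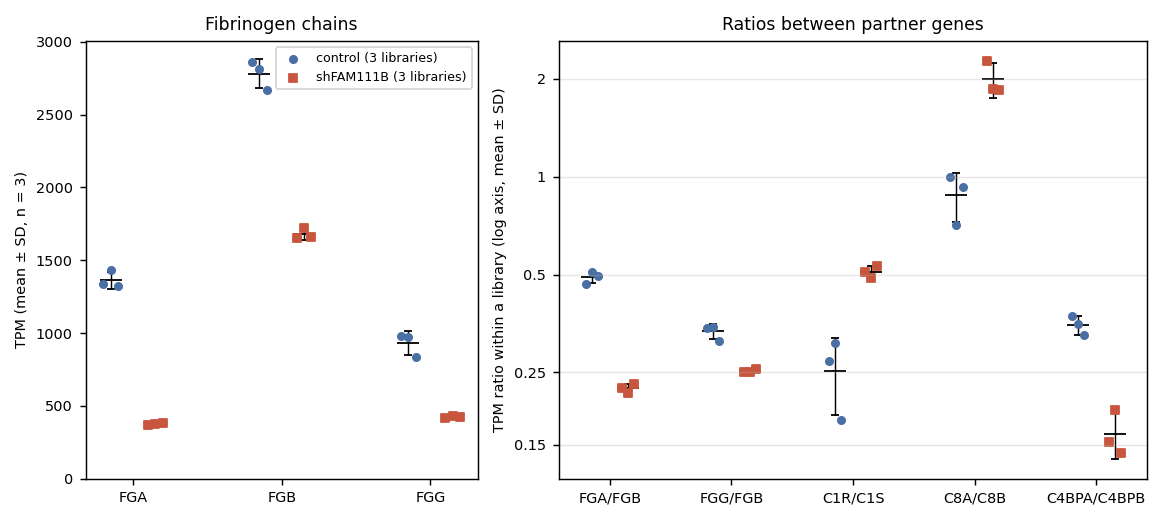
Left, TPM of the 3 fibrinogen chains in each library (points, with mean and SD, n = 3); right, 5 ratios of TPM between genes of one protein assembly in each library (log axis, same symbols). The shFAM111B libraries lie below the control libraries for FGA/FGB, FGG/FGB and C4BPA/C4BPB and above them for C1R/C1S and C8A/C8B.

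All 5 ratios of partner genes had groups that did not overlap, and each had an exact two-sided permutation p = 0.1 (adjusted p = 0.1 over the 5 ratios), the smallest possible here. Taken singly, 75.2% of all tested genes had groups that did not overlap. Ratios of other gene pairs were not taken, so whether partners differ from them was not tested. Many partners are also neighbours in the genome. In GENCODE v29 (GRCh38), 20 of the 51 members lie in 8 clusters of members no more than 100000 bases apart. Within the fibrinogen cluster on chromosome 4 the log2 fold changes ranged over 1.13, within the pair C4BPB and C4BPA on chromosome 1 over 1.09, and within C8A and C8B on chromosome 1 and C1S and C1R on chromosome 12 over 0.96 and 0.97. The complement genes C2, CFB, C4A and C4B on chromosome 6 ranged over 1.27, with the limits on these genes given above. F7, F10 and PROZ on chromosome 13 ranged over 0.74. KLKB1 and F11 on chromosome 4, at 0.19, and HRG and KNG1 on chromosome 3, at 0.33, lay closest together.

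TPM take account of length, so levels can be ordered between genes. In control cells the order began with SERPINA1 (3532 ± 28.3 TPM), FGB (2782 ± 100.1 TPM), CLU (2356 ± 204 TPM), VTN (1522 ± 49.5 TPM) and FGA (1363 ± 58.5 TPM; SD, n = 3 for each). In shFAM111B cells SERPINA1 still led with 2897 ± 42.1 TPM, followed by VTN (1960.3 ± 42.7 TPM), FGB (1681 ± 38.4 TPM), CLU (1222 ± 9.29 TPM) and C3 (1186 ± 174 TPM). The ranges of CLU and C3 overlap there, so these neighbours are not ordered beyond their spread. FGA dropped from rank 5 to 7, below FGG at rank 6, and A2M from rank 9 to 15. The ranges of FGA and FGG did not overlap in either group.

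Across all tested genes the difference between the groups followed transcript length, with a median log2 fold change of 0.17 for genes whose longest transcript has over 1000 and up to 2000 nt and -0.78 for those with over 4000 and up to 8000 nt. The members did not show that order: their medians were -0.73 over 7 genes and -0.47 over 12 genes in the same classes. Between 2000 and 4000 nt, 28 members had a median of -0.65, against -0.31 over all genes. Spearman's rho between length and log2 fold change was 0.03 over the 48 members and -0.46 over the 14263 tested genes with a length, as a description across genes that share the same 6 libraries. The short transcripts of SERPINC1 (1594 nt), CPB2 (1715 nt) and C8G (881 nt) were lower while the genes of their length were on the whole higher, and the long ones of C3 (5263 nt), F5 (7039 nt) and CD59 (7631 nt) were higher while those of their length were on the whole lower.

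**Figure D4:**
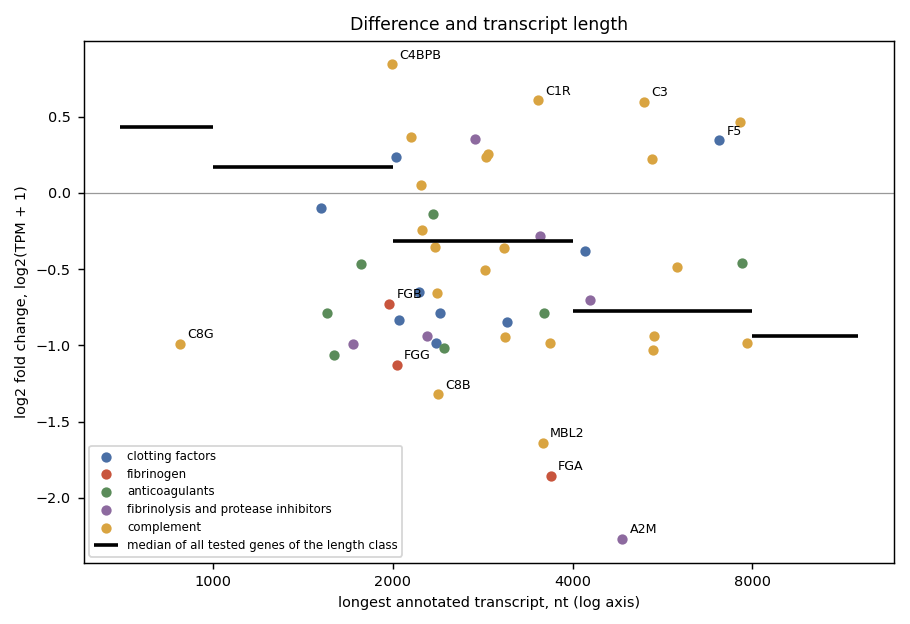
Log2 fold change of the 48 tested members (y axis) against the length of their longest annotated transcript (x axis, nt, log scale), coloured by family; black bars are the medians of all tested genes in each length class, the outer classes being open-ended. The members scatter without the downward steps of the bars.

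Other genes of these pathways, on a written list of 56, were treated in the same way. Of 29 tested, 2 (6.90%) were called higher and 9 (31.0%) lower at a fold of 2, against 6.77% and 23.7% of all tested genes. Without the limit on the fold 7 (24.1%) passed the test with higher and 16 (55.2%) with lower values, near the 21.1% and 50.9% of all tested genes. Among the called genes with the largest log2 fold change and a mean of at least 5 TPM were HABP2 (-1.91), LMAN1 (-1.75), S100A10 (1.44) and CPN2 (-1.43). HABP2, a protease that can activate factor VII, went from 51.6, 52.0 and 49.5 TPM to 14.4, 13.1 and 11.3 TPM. LMAN1, the cargo receptor that exports factors V and VIII from the endoplasmic reticulum, went from 72.6, 68.1 and 61.0 TPM to 19.9, 20.2 and 17.8 TPM. CPN2, the stabilising subunit of the carboxypeptidase that inactivates the anaphylatoxins, went from 25.2, 25.1 and 25.6 TPM to 8.65, 9.36 and 8.22 TPM. S100A10, which with annexin A2 binds plasminogen at the cell surface, went the other way, from 755, 785 and 801 TPM to 2085, 2056 and 2236 TPM. The groups lay apart for each of these 4 genes. C1QA, C1QB and C1QC, the recognition chains of C1 that come mainly from macrophages, were listed at 0 in every library.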

How the data were processed

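RNA of Huh7 cells was sequenced in 3 control and 3 shFAM111B libraries. The authors deposited TPM per gene and library, which hold no read depth, so no counting error is given. The submitters' processing notes name RSEM, DESeq2 and hg38 without their roles. The mean TPM per group and the authors' own comparison in the deposited table (a fold change as a ratio, its log2, p-values and adjusted p-values) were not used.

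The filter kept the 14394 genes that reached 1 TPM in 3 or more of the 6 libraries, a pseudocount of 1 was added, and log2 values were compared with limma 3.58.1 in R 4.3.3 (lmFit, eBayes with a trend, no covariates, Benjamini-Hochberg adjustment over all tested genes). Calls needed a fold of at least 2 and an adjusted p under 0.05. The ratios were compared by exact permutation. Of these steps, only the limma fit was tested on simulated data. Python 3.11.15 with pandas 2.3.3, scipy 1.17.1 and matplotlib 3.10.9 made the tables and figures.

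The members, lists, tests and alternatives were chosen with earlier results of these data known. Named genes followed a rule: values in every library for called members, at most 4 a role, and for the most abundant member of each role. The other genes with values in every library were chosen after their values were seen, or are parts of the ratios. Of the other pathway genes, the called ones with the largest difference and a mean of at least 5 TPM are named, and 2 of those 6 are not reported here. Positions and lengths come from GENCODE v29 (GRCh38), which matched 58420 of 60666 identifiers (96.3%). The promoter windows come from RefSeq (GRCh38.p14, 41 of 51 members, the first window of a symbol). No pair of libraries had identical values in over 0.889% of tested genes.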

Additional observations from a re-analysis of the deposited data

How the results depend on the processing

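Same-numbered libraries correlated by 0.0349 to 0.0908 in their deviations from the group means, and the other pairs by -0.0763 to 0.0442. The best match had the same number for shFAM111B replicates 1 and 3, whereas shFAM111B replicate 2 correlated best with control replicate 1. Correlations this small cannot decide whether the replicate numbers pair the libraries. The fit with the replicate number as a block gave the same 0 members called higher and 8 lower, with 983 higher and 3402 lower over all tested genes, and it took CFB (adjusted p = 0.0516) and SERPINA5 (adjusted p = 0.0505) past 0.05, with no other call or test lost. Of the alternatives, dropping the filter, testing genes with at least 1 TPM in every library (44 members) and an unadjusted P each left 0 members higher and 8 lower. A pseudocount of 0.1 gave 14 lower, median-of-ratios scaling 3 higher (C1R, C3 and C4BPB) and 3 lower, quantile normalization 2 higher (C1R and C4BPB) and 8 lower, rescaling to nuclear protein-coding genes 16 lower, and removal of the length trend 4 higher (F5, C1R, C4B and CD59) and 9 lower. With each library left out in turn, 0 members were higher and 8 to 11 lower. The share of all tested genes called lower was then 23.3% to 24.6%. It was 29.5% with a pseudocount of 0.1, 11.7% without the filter and 23.7% with at least 1 TPM in every library. That share was 12.4% with median-of-ratios scaling, 12.8% with quantile normalization, 29.2% after rescaling and 9.11% with the trend removed. The share of all tested genes called higher was 14.0%, 11.6% and 9.54% in the first, second and last of these. Over all tested genes, 974 higher and 3406 lower became 634 higher with at least 1 TPM in every library, 2016 and 1792 with median-of-ratios factors, 1673 and 1846 with quantiles made equal, 863 and 4201 after rescaling to protein-coding genes, and 1361 and 1300 with the trend removed. The share of higher calls, 22.2% for the deposited TPM, was 52.9%, 47.5%, 17% and 51.1% under the 4 alternatives, in that order. The cause of these shifts was not tested.

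The median log2 fold change of the members, -0.65, was -0.51 without a filter, -0.49 with at least 1 TPM in every library, -0.69 with a pseudocount of 0.1, -0.22 after median-of-ratios scaling, -0.33 after quantile normalization, -0.78 after rescaling to protein-coding genes and -0.31 with the trend removed, and it lay 0.13 to 0.46 below the median of all genes throughout. Leaving out a library gave -0.68 to -0.52. In the order of those last 4 alternatives, the clotting factors went from -0.65 to -0.24, -0.12, -0.78 and -0.33 (-0.51 without a filter and with the stricter one), fibrinogen from -1.13 to -0.67, -1.5, -1.25 and -1.23, the anticoagulants from -0.79 to -0.34, -0.48, -0.92 and -0.55, and complement from -0.36 to 0.0362, -0.0637, -0.49 and -0.0293. Without 1 library, the clotting factors lay between -0.70 and -0.51, fibrinogen between -1.20 and -1.09, the anticoagulants between -0.82 and -0.71 and complement between -0.42 and -0.35.

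Of single members, the signs turned after median-of-ratios scaling for F10 (0.35), KNG1 (0.068), SERPINA5 (0.32), SERPINA1 (0.17), C1S (0.0782), C8A (0.0362) and C4BPA (0.18), after quantile normalization for F10 (0.0348), C1S (0.0646), C8A (0.16), C4BPA (0.27), VTN (-0.0637) and SERPING1 (-0.14), after rescaling to protein-coding genes for SERPING1 (-0.0725), and with the trend removed for KNG1 (0.17), TFPI (0.22), C1S (0.11) and MASP1 (0.22). Of the 43 members that passed the test at any fold, 19 lost it under at least 1 alternative, 18 of them under these 4. No sign turned under the other alternatives. Within-library ratios kept their direction without a pseudocount and without each library. TPM hold no depth, so the precision of the low genes (C6, HRG, KLKB1, C8G) is unknown.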
